A study of Mus musculus with 3 samples.

Results

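Of the 18193 genes with a probe set on the Affymetrix mouse arrays, 7 genes for enzymes of heme synthesis were examined here: Alas1, Alad, Uros, Urod, Cpox, Ppox and Fech. They were taken by symbol, as every probe set to which the platform annotation gives 1 of these symbols alone, which made 18 probe sets. RNA had been hybridised from 3 sorted populations of the adult mouse spleen, on 1 array each. All cells came from Spic(igfp/+) mice, in which 1 Spic allele carries a green fluorescent protein (GFP) reporter, and which all 3 populations share. Spic is a transcription factor of red pulp macrophages. Spic-negative monocytes were CD11b+ Ly6C+ cells without GFP, Spic-positive monocytes were CD11b+ Ly6C+ cells with GFP, and red pulp macrophages were F4/80-high cells with high GFP. The number of animals behind each array and their exact age and strain are not given in the sources used here.

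Heme, an iron-holding porphyrin, is built along a chain of enzymes that begins and ends in mitochondria. Glycine and succinyl-CoA are joined in the mitochondrion, the middle steps run in the cytosol, and the last steps, including the insertion of iron, run in the mitochondrion again. Red pulp macrophages are known for the opposite reaction, since they engulf aged red blood cells, break down their heme and export the iron. All nucleated cells make some heme for cytochromes and other enzymes, while developing red blood cells make it in bulk. By its title, the series concerns how heme acts on monocytes that become these macrophages. The arrays show how the enzyme genes stand in each sorted population. Whether the populations are successive stages of one conversion was not tested. Not every step of the pathway is covered by the genes examined.

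Values are log2 expression as the authors normalised it, so a difference of 1 is 2-fold. Each gene was read on its brightest probe set, and levels below log2 5.02, the middle value over all non-control probe sets and arrays, were treated as near background (the floor). All 7 genes lay above the floor on all 3 arrays. Each population had 1 array, so no difference has a replicate check, no test was run, and no error between animals can be given. A gene can differ in bulk RNA through fewer cells of a type or through less RNA per cell, and these cannot be told apart.

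The macrophage array matched its label on the listed macrophage and monocyte markers, with erythroid and lymphoid RNA beside them. In macrophages, against Spic-negative monocytes, 14 of 14 genes of a red pulp macrophage list lay higher by 2-fold or more (8 of them above the floor on all arrays). By as much, 7 of 7 genes typical of classical monocytes lay lower. Of all genes above the floor, 19.6% lay higher and 11.3% lower by that size. Control probe sets spiked in at a fixed amount were brighter on the Spic-positive array in 18 of 18 cases, by a median of log2 2.16 over the Spic-negative array. The 3′ minus 5′ difference of Gapdh, which grows as the labelled RNA shortens, was log2 0.48, 2.25 and 1.61 in the Spic-negative, Spic-positive and macrophage arrays. That of beta-actin was 0.74, 0.57 and 1.13, with another order of the arrays. Their part in the results was not tested.

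Most of the heme synthesis genes were higher in red pulp macrophages, and the size differed widely from gene to gene. Alad stood out, 18.6-fold above Spic-negative monocytes, followed by Uros at 4.82-fold and Fech at 2.87-fold. Alas1 and Cpox were just past 2-fold, Urod was level on its brightest probe set, and Ppox was lower. Spic-positive and Spic-negative monocytes differed by less than 2-fold in all 7.

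**Figure D1:**
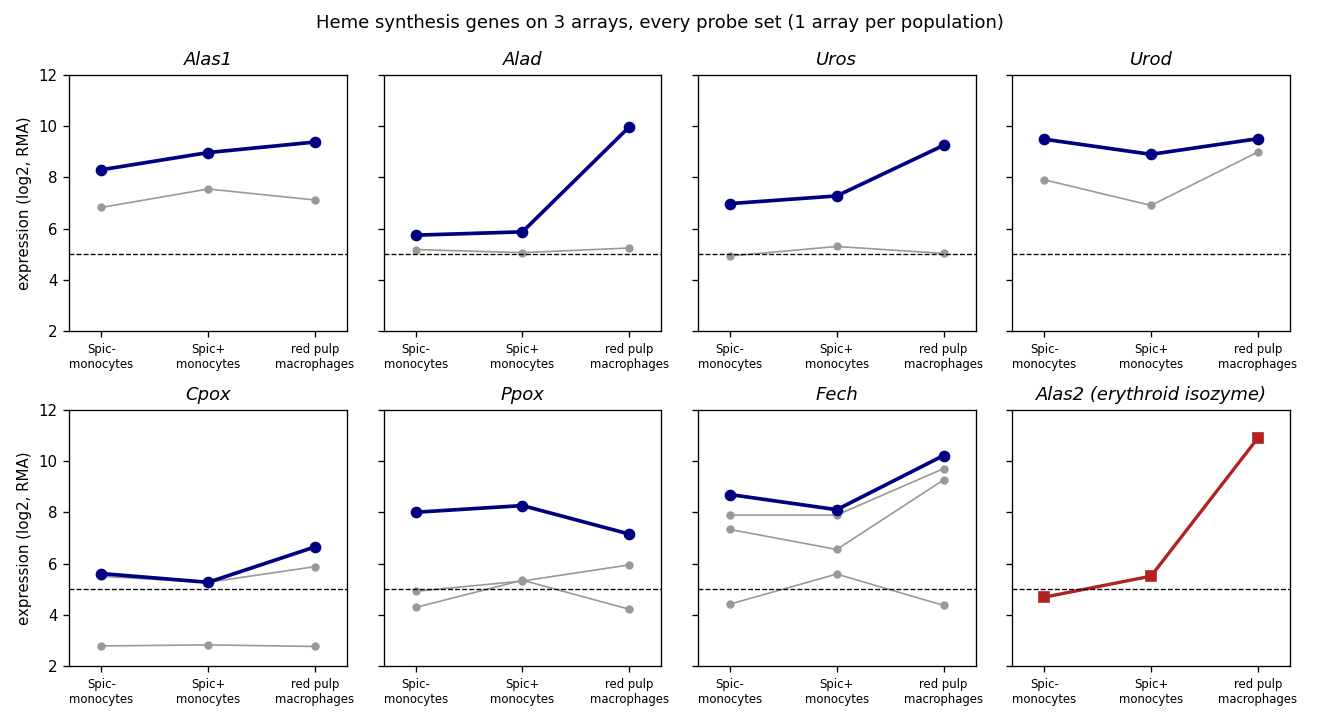
Log2 expression (RMA, vertical axis) of every probe set of the 7 genes, and of Alas2, on the 3 arrays (horizontal axis, 1 array per population). Thick blue lines are each gene's brightest probe set, grey lines its others, the red line Alas2 and the dashed line the floor at log2 5.02. Alad, Uros and Fech are highest in macrophages on their bright probe sets, while the brightest Ppox probe set is lowest there.

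Alas1 encodes the housekeeping 5-aminolevulinate synthase, the mitochondrial enzyme that opens the pathway and limits its rate outside the erythroid lineage. Its brightest probe set read log2 8.30 without Spic, 8.97 in monocytes with Spic and 9.38 in macrophages. The 3 populations thus lay in the order of Spic itself, which read 5.66, 9.22 and 12.23. The brightest probe sets of Alad and Uros gave the same order. The populations were sorted on GFP from the Spic locus, so the order of Spic was set by the sort. No link to Spic is read from it. The Alas1 differences from Spic-negative monocytes were 0.67 for Spic-positive monocytes and 1.08 for macrophages. In the monocyte comparison, 8.15% of the 12375 genes above the floor had a larger difference than Alas1. A second probe set, which can bind other transcripts too, read 6.83, 7.55 and 7.12, so there Spic-positive monocytes were highest and macrophages came next. Both probe sets put Spic-positive above Spic-negative monocytes, by 0.67 and 0.72, and they disagreed on whether macrophages lie above Spic-positive monocytes.

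Alad encodes the cytosolic enzyme that joins pairs of aminolevulinate into porphobilinogen, the pyrrole from which the ring is made. It read 5.75 on the Spic-negative array, 5.88 on the Spic-positive array and 9.97 on the macrophage array. Both monocyte arrays were close to the floor and to each other, and macrophages were far above, by 4.22 and 4.09. Of all genes above the floor, 1.36% had a larger difference between macrophages and Spic-negative monocytes. The other Alad probe set stayed between 5.07 and 5.25 on the 3 arrays, just over the floor, and showed no such step.

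Uros encodes uroporphyrinogen III synthase, the cytosolic enzyme that closes the ring. Its levels were 6.98, 7.28 and 9.25 in the Spic-negative, Spic-positive and macrophage arrays. As with Alad, the monocyte arrays lay together and macrophages stood above both, here by 2.27 and 1.97. A second Uros probe set ran from 4.94 to 5.31, at the floor, with the highest value in Spic-positive monocytes.

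Urod encodes uroporphyrinogen decarboxylase, which trims the side chains of the ring in the cytosol. Its 2 probe sets gave different sizes. The brightest, of a kind that can bind several transcripts, read 9.49, 8.90 and 9.51, so Spic-negative monocytes and macrophages were level. The other read 7.91, 6.91 and 8.99, with macrophages higher than Spic-negative monocytes by 1.08 and than Spic-positive monocytes by 2.07. Spic-positive monocytes were the lowest array on both, with differences of -0.58 and -0.99 from Spic-negative monocytes.

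Cpox encodes coproporphyrinogen oxidase, which works in the space between the mitochondrial membranes. It read 5.61, 5.27 and 6.65 on its brightest probe set and 5.50, 5.27 and 5.88 on the next. Macrophages were highest on both, and the monocyte levels lay close to the floor. Over Spic-negative monocytes the macrophage difference was 1.03 on the former and 0.38 on the latter. The third Cpox probe set was below the floor on all 3 arrays.

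Ppox encodes protoporphyrinogen oxidase of the inner mitochondrial membrane, which completes the double bonds of protoporphyrin. It went the other way on its brightest probe set, which read 8.0, 8.26 and 7.15 on the arrays in the same order. Macrophages were lowest, with differences of -0.84 from Spic-negative and -1.11 from Spic-positive monocytes. The remaining 2 probe sets were dim and split. The first of them read 4.92, 5.32 and 5.95, highest in macrophages, and the last read 4.29, 5.35 and 4.22, above the floor in Spic-positive monocytes alone.

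Fech encodes ferrochelatase, which sets iron into protoporphyrin and so makes heme. It had 4 probe sets. The brightest read 8.69, 8.10 and 10.21, the next 7.89, 7.89 and 9.70, and the third 7.33, 6.55 and 9.26. All of these put macrophages on top, by 1.52, 1.82 and 1.94 over Spic-negative monocytes, which makes Fech the gene with the most probe sets in accord. Between the monocyte arrays they differed by -0.59, 0.00 and -0.77. The dimmest probe set read 4.42, 5.59 and 4.37 and passed the floor in Spic-positive monocytes only.

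The counts past 2-fold are given beside those over all genes. Between the monocyte populations, 0 of 7 genes reached 2-fold upwards and 0 downwards in Spic-positive monocytes, where 3.49% and 3.06% of the 12375 genes did. The median of the 7 differences was 0.13, against -0.06 for all genes. At 1.5-fold, Alas1 was higher and Fech lower in Spic-positive monocytes, with 10.4% and 12.6% of all genes past that size. With 7 genes, counts of 0 and 1 are near what these shares give, and nothing about the group is read from them. Of all genes that differed by 2-fold, 53.3% were higher in Spic-positive monocytes, and 42.4% after the arrays were centred on their medians.

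Macrophages were at least 2-fold above Spic-negative monocytes in 5 of 7 genes (Alas1, Alad, Uros, Cpox and Fech), and none was 2-fold lower. Upwards, 19.6% of all genes were past 2-fold, and downwards 11.3%. The median difference of the 7 was 1.08, against 0.03 for all genes. When a gene was read as the mean of its probe sets, 3 of 7 passed and the median was 0.69. Against Spic-positive monocytes, 4 of 7 were at least 2-fold higher (Alad, Uros, Cpox and Fech) and Ppox was at least 2-fold lower. The same held for 22.0% and 11.6% of all genes. At 1.5-fold, 5 genes were higher and Ppox lower in each macrophage comparison. Of all genes, 29.5% were higher and 22.1% lower by that size against Spic-negative monocytes, and 33.4% and 24.5% against Spic-positive monocytes. The median was 1.37, against 0.10 for all genes, and 0.85 from the mean of probe sets. The macrophage array enters both comparisons, so they are not independent.

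**Figure D2:**
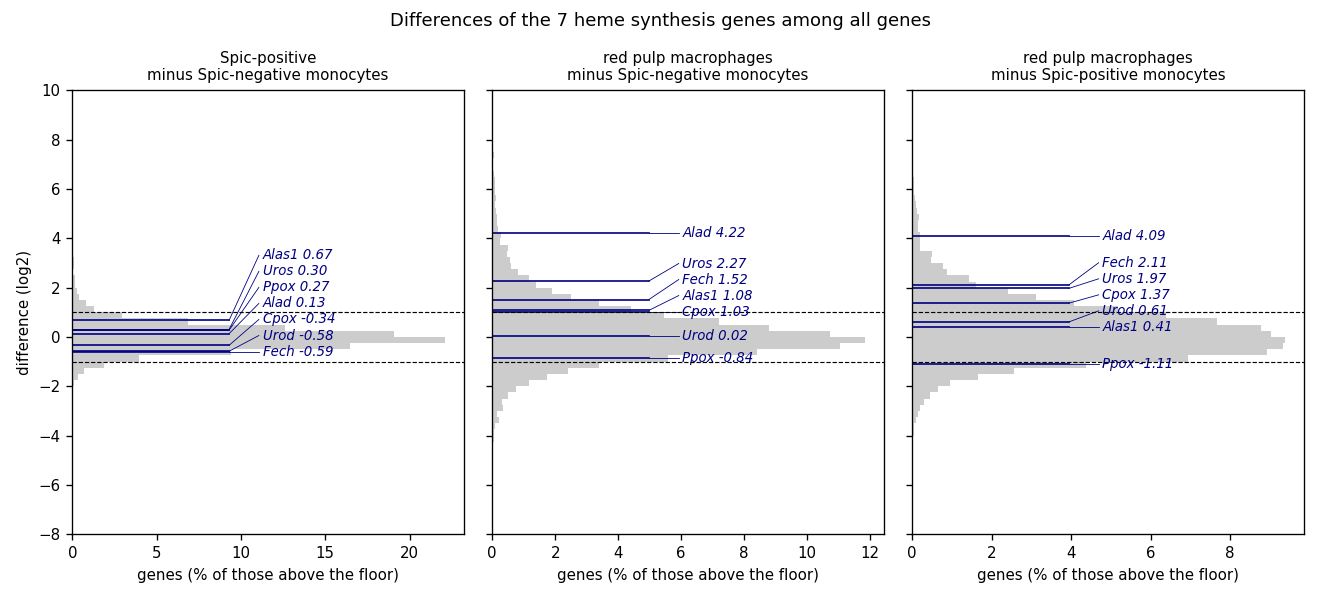
Log2 difference (vertical axis) of each of the 7 genes, as labelled blue lines, beside the share of all 12375 genes above the floor at each difference (grey bars, horizontal axis in percent). Dashed lines mark 2-fold. All 7 lie inside them between the monocyte arrays, while Alad, at 4.22 and 4.09, lies far up in both macrophage comparisons.

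By place in the cell, the 3 cytosolic enzymes ran from 0.02 to 4.22 in macrophages over Spic-negative monocytes, and the 4 mitochondrial ones from -0.84 to 1.52. The ranges overlapped. At the level of probe sets, 17 of 18 passed the floor on at least 1 array. Of these, 9 were at least 2-fold higher in macrophages than in Spic-negative monocytes and 0 were lower by that size, beside 16.9% and 14.8% of the 25800 non-control probe sets that passed the floor. Between the monocyte arrays 2 of the 17 were at least 2-fold higher and 0 lower, beside 3.19% and 5.10% of all. These were the dimmest of Ppox and of Fech, which lay under the floor in the other populations.

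The enzyme that opens the pathway has a second, erythroid form, encoded by Alas2 on the X chromosome, which serves hemoglobin production. It read 4.69, 5.51 and 10.89 on the Spic-negative, Spic-positive and macrophage arrays. It was thus under the floor without Spic, barely over it in monocytes with Spic, and 5.87 above it in macrophages. The difference between macrophages and Spic-negative monocytes is therefore at least 5.87, and that from Spic-positive monocytes was 5.38. The housekeeping form, Alas1, was above the floor on all 3 arrays.

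Most erythroid markers were higher on the macrophage array. Of 24 erythroid genes with a probe set, 10 lay above the floor on all arrays. Of these, 8 were at least 2-fold higher in macrophages than in Spic-negative monocytes and 1 lower, with a median of 2.37. Of all genes, 19.6% were higher and 11.3% lower by that size. Another 12 of the 24 passed the floor on some arrays only, many through macrophages alone. The summed linear level of the 24 was 1688, 1882 and 19870 on the Spic-negative, Spic-positive and macrophage arrays. That sum leaves out 3 probe sets shared by Hba-a1 and Hba-a2, which were highest on the macrophage array, at 11.4, 14.35 and 13.85. They lay above the Spic-negative array by 7.48 to 8.15 in macrophages and by 4.04 to 5.13 in Spic-positive monocytes. The first of them was under the floor in Spic-negative monocytes. Slc4a1, the anion exchanger of the red cell membrane, read 3.86, 3.83 and 11.32, and Klf1, an erythroid transcription factor, read 4.70, 4.52 and 9.47. Gata1, the master regulator of the lineage, read 5.02, 5.05 and 7.59. Rhd, a red cell membrane gene, was higher in macrophages by 4.69. Ermap, Kel and Hemgn, also of the red cell lineage, were under the floor in Spic-negative monocytes and 4.56, 3.07 and 5.33 above it in macrophages, which bounds their differences from below. Epb42 did not pass the floor on any array, and Sptb differed by 0.05. On the same array 12 of 13 cell cycle genes lay higher by 2-fold or more than in Spic-negative monocytes, as did 4 of 5 NK cell, 4 of 9 B cell, 3 of 5 T cell and 4 of 5 dendritic cell markers. So did 2 of 5 plasma cell, 2 of 6 neutrophil and 2 of 4 platelet markers. Several of these passed the floor in macrophages only, among them 4 of the 5 NK cell markers. The part of erythroid RNA, of cell division or of these other cells in the macrophage levels of Alad, Uros, Fech and the others was not tested.

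Of the 24 erythroid genes, 10 lay above the floor on the Spic-negative array and 13 on the Spic-positive array. Among the former were Rhd (5.54), Ank1 (6.14) and Tal1 (6.07), while Slc4a1, Klf1, Hemgn, Kel and Rhag were under the floor in both. The alpha-globin probe sets split. The 3 shared by Hba-a1 and Hba-a2 read 3.25, 6.87 and 5.91 without Spic and 7.29, 11.58 and 11.03 in monocytes with it, while a probe set of Hba-a2 alone differed by -0.23 and that of Hba-a1 alone was under the floor. The erythroid list as a whole had 2 of 22 genes at least 2-fold higher there, Tspan33, which B cells express too, and Hbb-b2, and 1 lower, Nfe2. Its median was 0.06. Of all genes, 3.49% were at least 2-fold higher and 3.06% lower on the Spic-positive than the Spic-negative array. B cell markers were at least 2-fold higher in 8 of 9 genes on the Spic-positive array. Their summed linear levels were 3398, 10440 and 24760 in the Spic-negative, Spic-positive and macrophage arrays. Most of each sum came from Ighm, which read 11.47, 12.97 and 14.49. The list as a whole did not follow the sum from Spic-positive monocytes to macrophages. There 1 of the 9, Ighm, was at least 2-fold higher in macrophages and 3 were lower by that size, with a median of -0.32. In the same comparison, 22.0% of all genes were higher and 11.6% lower by as much. Between the 2 monocyte populations, 6 of 13 cell cycle genes and 3 of 5 dendritic cell markers passed 2-fold upwards with Spic, the latter including Ccr7 (4.05) and Itgax (3.14). Of 6 neutrophil markers 1 was, Mpo, by 2.86. The part of any of these in the Alas1 difference of 0.67 was not tested.

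Genes that surround the pathway differed by group. Of 15 genes for carriers of porphyrins and mitochondrial iron and for iron-sulfur assembly, 7 were at least 2-fold higher in macrophages than in Spic-negative monocytes. None was lower by that size, and the median was 0.80. Of all genes, 19.6% were higher and 11.3% lower by as much. Abcb6, a porphyrin transporter, read 5.51, 5.77 and 8.99 and was higher by 3.48. Abcg2, a membrane pump that exports porphyrins, read 6.80, 6.26 and 9.01 and was higher by 2.21. Glrx5, which hands on iron-sulfur clusters, was higher by 1.97, and Nfs1, the cysteine desulfurase that provides their sulfur, by 1.29. Tmem14c, a mitochondrial protein needed for porphyrin import, differed by 1.23.

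Other carriers stayed within 2-fold. The mitochondrial iron importers Slc25a37 and Slc25a28 (mitoferrins) differed by 0.64 and -0.78. Abcb10, a partner of the former in red cell precursors, differed by 0.80, and Tspo, a protein of the outer mitochondrial membrane that binds porphyrins, by -0.08. Between the monocyte arrays 0 of the 15 passed 2-fold in either direction, where 3.49% of all genes were higher and 3.06% lower. A count of 0 of 15 is near these shares, and nothing about the carriers is read from it.

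Genes for the supply of glycine and succinyl-CoA varied from gene to gene. Of 9 genes, 2 were at least 2-fold higher in macrophages than in Spic-negative monocytes, near the share of 19.6% over all genes. Nothing about the group is read from this count. Its median was 0.33. The 2 were Shmt2, the mitochondrial enzyme that makes glycine from serine (1.87), and Suclg2, a subunit of a succinyl-CoA synthetase (1.63). Slc25a38, the glycine carrier of the mitochondrial membrane, read 8.46, 8.53 and 8.28. Shmt1, the cytosolic relative of Shmt2, peaked in Spic-positive monocytes at 8.18, against 6.61 and 6.59 in Spic-negative monocytes and macrophages.

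Among 13 regulators of Alas1 and of heme supply above the floor, 3 passed 2-fold upwards in macrophages against Spic-negative monocytes and 1 downwards, again near the shares of 19.6% and 11.3% over all genes. Nr1d1 (Rev-erb alpha), a repressor that binds heme, was under the floor in both monocyte populations, at 3.86 and 4.07, and read 7.89 in macrophages. Clpp and Lonp1, mitochondrial proteases of the kind that turn over Alas1 protein, were higher by 1.72 and 1.12, while Clpx, the chaperone of Clpp, differed by 0.02. Bach1, a heme-sensing repressor, was the lower gene and read 11.54, 11.34 and 10.13. Ppargc1b, a coactivator of mitochondrial genes, was highest in Spic-positive monocytes, at 8.36 against 6.95 and 7.07.

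In macrophages against Spic-negative monocytes, the median difference was larger for the genes of heme breakdown and export than for those of synthesis. Hmox1, the heme oxygenase that opens the ring, read 8.01, 9.96 and 13.08, and the iron exporter Slc40a1 read 7.09, 8.91 and 13.50. Of 7 genes for heme breakdown and export above the floor, 5 passed 2-fold upwards in macrophages against Spic-negative monocytes. The heme exporter Flvcr1 was lower by 2-fold or more. Of all genes, 19.6% were higher and 11.3% lower by that size. The median of the breakdown and export genes was 2.56, against 1.08 for the synthesis genes, of which 5 of 7 passed 2-fold upwards too. Alad, at 4.22, lay below Hmox1 (5.07) and Slc40a1 (6.41) and above the other breakdown and export genes. Hmox1 and Slc40a1 also stand on the red pulp macrophage list used above. Between the monocyte arrays Hmox1 and Slc40a1 differed by 1.95 and 1.82. The other 5 breakdown and export genes above the floor stayed within 2-fold there, and the group median was 0.44. No synthesis gene passed 2-fold between the monocyte arrays, which is near the shares of 3.49% higher and 3.06% lower over all genes. Whether the 2 groups differ beyond chance was not tested, and both are small.

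**Figure D3:**
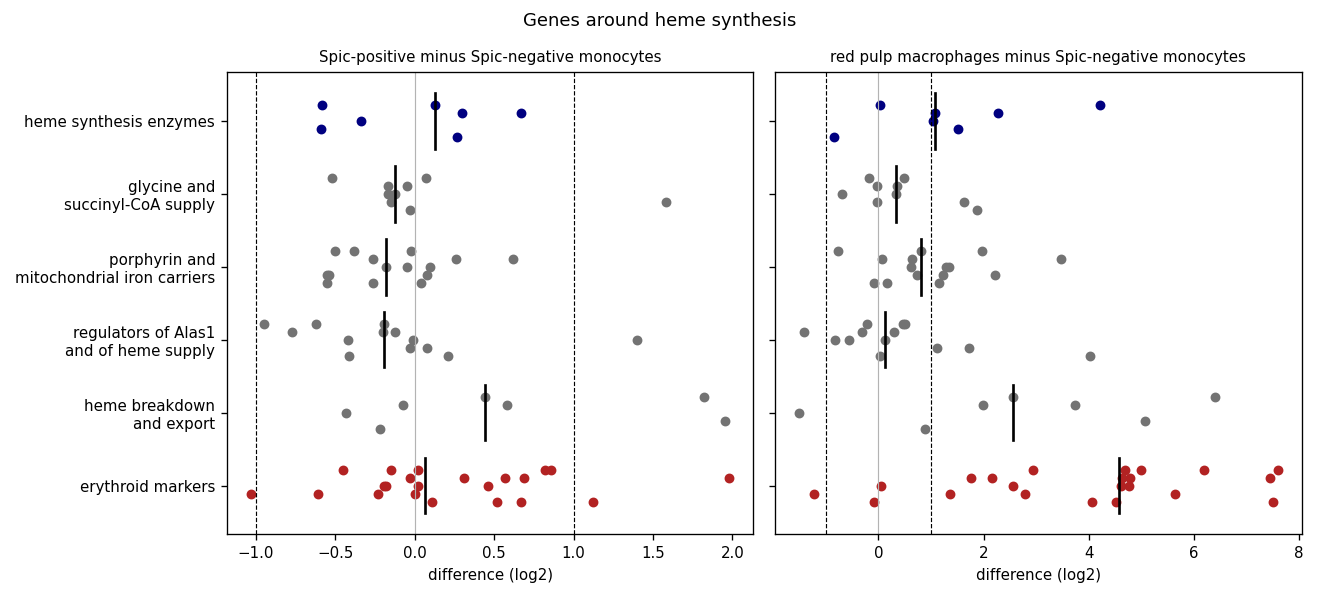
Log2 differences (horizontal axis) of single genes above the floor, by group: heme synthesis enzymes in blue, the genes around them in grey and erythroid markers in red. Black bars are group medians and dashed lines mark 2-fold. On the right, against Spic-negative monocytes, macrophages reach a median of 1.08 for synthesis and 2.56 for breakdown and export; many erythroid markers passed the floor only there. On the left, the monocyte medians run from -0.19 to 0.44.

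Promoter sequences were available for 6 of the 7 genes and for Alas2 (RefSeq, GRCm38.p6), and the 250 bases before each annotated start were searched on both strands. The motifs were AGATAA for the GATA factors, GAGGAA for PU.1, Spi-B and Spic, TGACNNNGC of the antioxidant response element, the palindrome of nuclear respiratory factor 1 printed in capitals in the Alas1 stretch below, and TGACGTCA of the cyclic AMP response element. Of 32851 such windows over all genes, 9.99%, 23.3%, 10.2%, 0.782% and 1.55% held each of them in that order. In the 9 windows of the 6 genes, 7 held none of these letters. The stretches below show the matches in Alas1 and Uros, with the match in capitals and the strand of the gene printed from 5′ to 3′. In Uros the match reads on the other strand.
Alas1, chr9:106247906-106247935, minus strand: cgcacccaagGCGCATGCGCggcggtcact
Uros, chr7:133709454-133709483, minus strand: gtcctcgtcttcTTCCTCatcctccacctc
Uros, chr7:133709421-133709450, minus strand: ctcttcttcttcTTCCTCctcccgctggcc

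The Alas1 match lies before the inner of its 2 annotated starts, 185 bases upstream, and inside the span of the gene. The Uros matches lie 170 and 137 bases before the outer of its 2 starts searched, in a run rich in pyrimidines. They too lie inside the span of the gene. The promoters of Alad, the gene with the largest macrophage difference, and of Alas2, the erythroid form, are given whole for comparison. The Alad window held no match, and the Alas2 window held GAGGAA, 142 bases before the start, and AGATAA on the other strand, 80 bases before it. These are matches of letters and say nothing about binding.
Alad, chr4:62520064-62520313, minus strand: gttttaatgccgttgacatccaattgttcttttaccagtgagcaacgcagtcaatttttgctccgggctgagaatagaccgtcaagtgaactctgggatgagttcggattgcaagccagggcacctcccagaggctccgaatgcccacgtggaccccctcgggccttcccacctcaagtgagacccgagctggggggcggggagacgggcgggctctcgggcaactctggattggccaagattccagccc
Alas2, chrX:150547167-150547416, plus strand: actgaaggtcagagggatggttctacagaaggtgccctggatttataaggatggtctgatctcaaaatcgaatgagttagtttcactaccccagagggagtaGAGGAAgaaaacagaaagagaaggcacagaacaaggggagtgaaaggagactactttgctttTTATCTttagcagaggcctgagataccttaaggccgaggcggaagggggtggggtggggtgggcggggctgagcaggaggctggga

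Alad had the widest range of the 7, and the genes with the most similar pattern were sought by the distance between log2 levels centred on each gene's mean over the 3 arrays. Among 12374 other genes the nearest were Sned1, Rims3, Maged1, Cdc6 and Oplah, at distances of 0.00966 to 0.0809. Sned1 read 5.46, 5.58 and 9.66, and the DNA replication gene Cdc6 read 4.0, 4.24 and 8.24. The likeness rests on 3 arrays only, and the last 3 of the 5 were under the floor in both monocyte populations.

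How far each value rests on the processing is shown for the macrophage comparisons. Alad and Fech stayed at least 2-fold higher in both under all 8 alternatives, with Alad between 2.13 and 4.26 and Fech between 1.31 and 1.88 over Spic-negative monocytes. Uros kept this over Spic-negative monocytes, between 1.18 and 2.32. Over Spic-positive monocytes, Uros fell short of 2-fold with the mean or median of probe sets (0.85 in each). So did Cpox (0.64 and 0.61), which ends 2 of the 4 calls there. Urod passed 2-fold in that comparison under both (1.34 in each), so 3 genes were at least 2-fold higher. Without _x_at and _s_at probe sets Urod reached 2.07 there, and 5 genes were at least 2-fold higher. Over Spic-negative monocytes, Alas1 (0.69) and Cpox (0.47) fell short of it when probe sets were averaged. Ppox changed sign against Spic-negative monocytes with the mean (0.04) and the median (1.04) of its probe sets, and Urod reached 1.08 once promiscuous probe sets were left out and -0.01 after quantile normalization again.

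**Figure D4:**
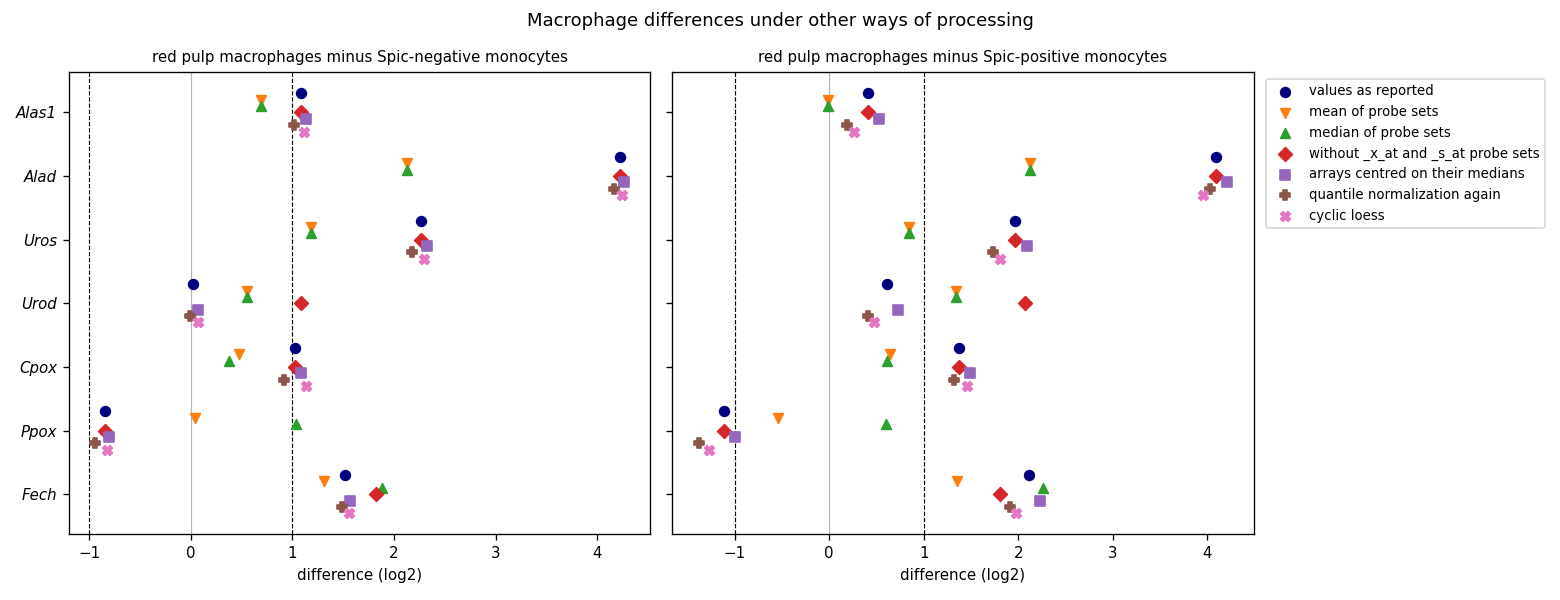
Log2 difference (horizontal axis) of each of the 7 genes in macrophages against Spic-negative (left) and Spic-positive monocytes (right), as reported (blue circles) and under 6 alternatives (other symbols). Dashed lines mark 2-fold. Alad and Fech lie right of 2-fold under all settings drawn, whereas the Ppox symbols fall on both sides of 0.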

How the data were processed

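The authors deposited log2 expression for each probe set, made with RMA per the submitters' processing notes, which name no version. The log2 scale was taken from the values, which ran from 1.82 to 14.50 and were not centred per gene. Quantile normalization, a step of RMA, hides differences in total RNA per cell. Of 45101 probe sets, 64 controls were left out, 34945 had 1 symbol, 932 several and 9160 none here. Symbols were updated through gene identifiers with a GRCm38.p6 table. A gene took its probe set with the highest mean, and 12375 of 18193 genes had an array above the floor of log2 5.02. The members and gene lists were chosen with earlier results of these data known. Genes named are the 7 members, members of the lists, and the 5 nearest in pattern to the member with the widest range. Where the text speaks of all genes at 2-fold, no significance test stands behind it, since each population had 1 array and the number of arrays limits the precision. Alternatives were the mean or median of probe sets, median centring, quantile normalization again, cyclic loess (limma 3.58.1, R 4.3.3), no floor or one at the 75th percentile, no _x_at or _s_at probe sets, and 1.5-fold. Python 3.11.15, numpy 2.4.6, pandas 2.3.3 and matplotlib 3.10.9 were used. The scripts were tested on simulated data.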

Additional observations from a re-analysis of the deposited data

How the results depend on the processing

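Over 165 values of single genes under alternatives, 148 kept their side of 2-fold, 11 fell under it and 5 passed it. The remaining 1 had been past 2-fold and changed sign. It was Ppox in macrophages against Spic-positive monocytes, at 0.60 with the median of probe sets. Among the 5 was Ppox against Spic-negative monocytes, which went from -0.84 to 1.04 with the median and so changed sign too. Some values within 2-fold also changed sign. Ppox read 0.04 against Spic-negative monocytes with the mean, and Alas1 -0.01 against Spic-positive monocytes with the mean or median. With the mean of probe sets the median of the 7 differences was 0.69 for macrophages over Spic-negative monocytes and 0.85 over Spic-positive monocytes, and 0.85 for the latter with the median of probe sets. With the mean, 3 genes were at least 2-fold higher than in Spic-negative monocytes. Ppox as the gene 2-fold lower than in Spic-positive monocytes was lost, leaving 0, with the mean or median of probe sets and after centring. At 1.5-fold, 1 gene was higher and 1 lower in monocytes with Spic, and 1 was lower in macrophages than in Spic-negative monocytes. Averaging takes in dim probe sets near the floor by its construction.

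Counts over all genes moved by over 1.5 times in 3 cases. With the floor at the 75th percentile, which leaves 7971 genes and 6 of the 7 members, 249 in place of 432 were 2-fold higher in Spic-positive monocytes, and 943 in place of 1435 lower in macrophages than in Spic-positive monocytes. With the mean of probe sets, 237 in place of 379 were lower in Spic-positive monocytes. Centring moved the median of all genes in macrophages against Spic-positive monocytes from 0.10 to 0.23, and quantile normalization again moved it to -0.03. No paired analysis was possible because each population had 1 array. Signal near the floor limits Cpox, both monocyte levels of Alad, and the dim probe sets of Uros, Ppox and Fech.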
